A study of Rattus norvegicus with 39 samples.

Results

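The growth hormone dependent liver genes described here are 10 genes known from textbook endocrinology to be expressed in rat liver under the control of growth hormone or to carry its signal. They were listed by name, with earlier results of these data known. They are the receptor gene Ghr, the signalling genes Stat5b and Socs2, the circulating IGF-binding subunit Igfals, the male-pattern genes Cyp2c11, Cyp2c13, Cyp3a2 and Obp3, and the liver products Serpina6 and Car3. All 10 were measured, on 13 of the 31099 probe sets of an Affymetrix rat expression array, and were 10 of 14217 genes tested. The study profiled total RNA from the left lateral liver lobe of rats aged 5 to 6 weeks, killed 48 h after treatment. The labels mark the arrays as biological replicates, 5 per compound and 9 for the untreated controls. ANIT was given at 125 mg/kg in corn oil by mouth, DMN and DNP each at 15 mg/kg in water by mouth, and Roziglitazone, as the labels spell it, at 1000 mg/kg in methylcellulose by mouth. NMF at 1000 mg/kg and Caerulein at 50 µg/kg were injected intraperitoneally in saline. The controls carried no vehicle, so compound, vehicle and route cannot be told apart in a comparison with them. Strain and sex are not given in the sources used here.

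Growth hormone binds its receptor on hepatocytes, the receptor activates the kinase JAK2, and JAK2 phosphorylates STAT5B, which moves to the nucleus and binds DNA. In the rat the pituitary of males releases the hormone in pulses and that of females more evenly, and STAT5B, together with the liver factors HNF4A, FOXA and ONECUT1, sets male-pattern and female-pattern genes by this rhythm. SOCS2 and CISH are induced by the signal and dampen it, and the liver answers the hormone by secreting IGF1 and the acid-labile subunit that holds it in the circulation.

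Levels are given as log2 of the deposited intensity, with 1 unit a doubling, and no level of a probe set can be compared with that of another. Over all probe sets the scale ran from 2.43 to 14.5, and 14 of 15 bacterial spike-in probe sets, which mark background, lay between 3.31 and 4.89. The 11 measured hepatocyte markers had group means of 12.3 to 14.46, near the top of the scale. Of the sex-linked genes, the Y-linked Eif2s3y lay between 7.95 and 9.80 and Xist, the transcript of the inactive X chromosome, between 4.33 and 6.29 over the 39 arrays. Earlier results of these data had picked out 3 arrays as standing apart from their labels. Across genes, ANIT 3, by its deviation from the mean of the remaining arrays, had a correlation of 0.301 to its own group and of 0.705 to DMN, and Roziglitazone 2 one of -0.303 to its own group and of 0.802 to ANIT. For DMN 2 the correlation to the other DMN arrays was 0.00344. Only 15 of 39 arrays were most like their own group by this measure. A further 6 arrays (control 4 and 5, DMN 3, DNP 1, NMF 3 and Roziglitazone 1) had a low signal at the 5′ end of the GAPDH transcript. It was 6.34 to 7.42, against 10.49 to 12.93 in the other 33. The 3′ signal minus the 5′ signal, a measure of RNA integrity, was 4.42 to 6.07 in control 4, DMN 3, NMF 3 and Roziglitazone 1. This value was 1.75 in control 5 and 2.75 in DNP 1, and 2.33 in ANIT 5, which is not among the 6. Whether the RNA of the 6 arrays was degraded was not tested. Of these 6, Roziglitazone 1 (-0.221), control 5 (-0.086) and DNP 1 (-0.0612) also had correlations under 0 with their own group. Each member's call that was gained or lost when the 3, the 6 or all 9 of these arrays were left out is given without them.

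The members were lower after ANIT, DMN and NMF, and none passed the test against control after the other compounds. After ANIT, 8 of the 10 members fell and none rose, where 8.29% of all genes tested fell and 8.19% rose (limma, Benjamini-Hochberg adjusted p under 0.05). After NMF 8 members fell and none rose, against 3.63% and 3.85% of all genes, and after DMN 4 fell and none rose, against 4.53% and 5.87%. The median change of the members was -1.80 after ANIT, -1.83 after NMF and -0.99 after DMN, and that of all genes was -0.09, -0.05 and -0.06. All 5 compound arrays lay below all 9 controls for 5 members after ANIT, 7 after NMF and 1 after DMN, where 3.01%, 1.81% and 0.985% of all genes did so. Without the 3 arrays that stood apart from their labels the members that fell numbered 9, 8 and 6 for ANIT, NMF and DMN. The 3 comparisons share the control arrays. In these bulk samples fewer hepatocytes and less RNA per hepatocyte cannot be told apart, and array number limits the precision.

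**Figure D1:**
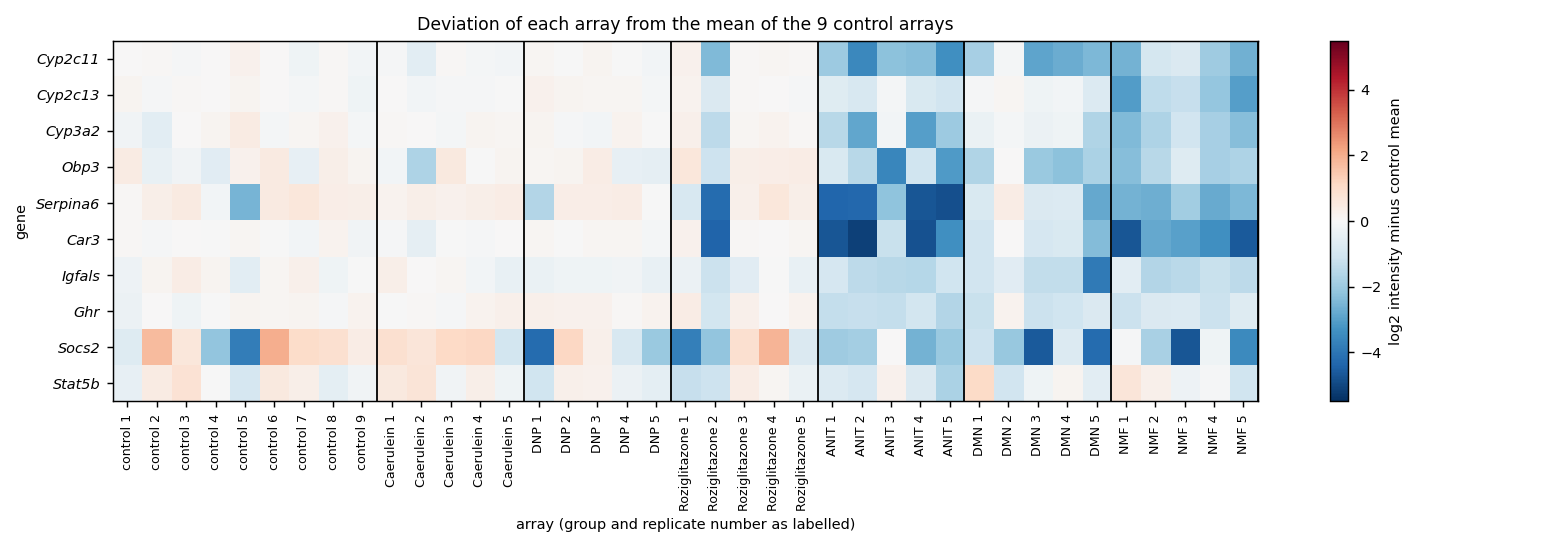
Each row is a member gene and each column an array; the color gives the log2 intensity minus the mean of the 9 control arrays, blue for lower and red for higher. The ANIT, DMN and NMF arrays are blue for most members; DMN 2 has a median of -0.05 over the members and Roziglitazone 2 a median of -1.30.

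Ghr encodes the growth hormone receptor. Its level in the 9 controls was 11.16 at the lowest, 11.50 at the median and 11.67 at the highest. The ANIT arrays 1 to 5 had 10.20, 10.24, 10.17, 10.48 and 9.90, and the NMF arrays 10.31, 10.69, 10.75, 10.31 and 10.79. Every ANIT and every NMF array lay below every control. The DMN arrays had 10.27, 11.69, 10.32, 10.38 and 10.71, and the exception was the array labelled DMN 2, which was above all controls. Ghr fell on the log2 scale after ANIT (-1.29, SE 0.18, 2.45-fold, adjusted p = 8.29e-06), after NMF (-0.92, SE 0.18, 1.89-fold, adjusted p = 7.96e-04) and after DMN (-0.82, SE 0.18, 1.76-fold, adjusted p = 0.00279). The DMN difference without the array labelled DMN 2 was -1.07 (adjusted p = 1.78e-05). Caerulein (11.43 to 11.78) and DNP (11.55 to 11.75) overlapped the controls, as did Roziglitazone apart from its array 2, at 10.50. The order of the group means was ANIT 10.20, NMF 10.57, DMN 10.67, Roziglitazone 11.47, control 11.49, Caerulein 11.58 and DNP 11.68. No difference between ANIT, NMF and DMN in Ghr passed the test by limma, with adjusted p of 0.225 to 0.925. A dimmer Ghr probe set varied between 3.45 and 10.39 over the arrays and passed the test in none of these comparisons (adjusted p of 0.458 for ANIT, 0.600 for DMN and 0.835 for NMF). With the mean of both probe sets the Ghr differences were -1.32, -1.05 and -0.87 for ANIT, DMN and NMF, but with an SE of 0.56 they did not pass (adjusted p of 0.104, 0.270 and 0.452).

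Stat5b, the transcription factor of the pathway, did not pass the test in any comparison with control. The controls ran from 6.70 through a median of 7.57 to 8.39. The ANIT arrays had 6.86, 6.68, 7.84, 6.80 and 5.86, the DMN arrays 8.68, 6.56, 7.39, 7.77 and 7.01, and the NMF arrays 8.27, 7.90, 7.31, 7.55 and 6.51. Each of these groups overlapped the controls, and ANIT 3 was the only ANIT array above 6.86. The difference was -0.80 for ANIT (95% interval -1.49 to -0.11, adjusted p = 0.0993), -0.13 for DMN (-0.81 to 0.56) and -0.10 for NMF (-0.78 to 0.59). The ANIT difference was -1.06 without the array labelled ANIT 3 (adjusted p = 0.0363). It was also -1.06 without the 3 arrays that stood apart from their labels (adjusted p = 0.0270). Without the 6 arrays of low GAPDH 5′ signal it was -0.94 (adjusted p = 0.0451), and without all 9 arrays -1.20 (adjusted p = 0.00657).

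Socs2, which encodes a feedback inhibitor induced by the STAT5 signal, had lower means after all 3 compounds and varied widely, and did not pass the test. Untreated livers ranged from 5.46 through 9.89 to 11.27. ANIT arrays 1 to 5 had 7.31, 7.41, 9.28, 6.65 and 7.21, the DMN arrays 8.11, 7.17, 4.64, 8.52 and 5.05, and the NMF arrays 9.21, 7.50, 4.56, 9.03 and 5.78. All 3 groups overlapped the controls, whose lowest values were 5.46 in control 5 and 7.08 in control 4, both arrays of low GAPDH 5′ signal. The differences were -1.69 for ANIT (SE 0.93, adjusted p = 0.212), -2.57 for DMN (SE 0.93, adjusted p = 0.0743) and -2.05 for NMF (SE 0.93, adjusted p = 0.208). Socs2 was also low in the other arrays with little GAPDH 5′ signal, at 5.05 in DNP 1 and 5.52 in Roziglitazone 1. Without those 6 arrays Socs2 was called lower after each of the 3 compounds, by -2.55 for ANIT (adjusted p = 0.00710), -2.91 for DMN (adjusted p = 0.0100) and -2.24 for NMF (adjusted p = 0.0484). Without all 9 arrays the Socs2 differences were -2.98, -2.89 and -2.24 (adjusted p of 0.00184, 0.00828 and 0.0283).

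**Figure D2:**
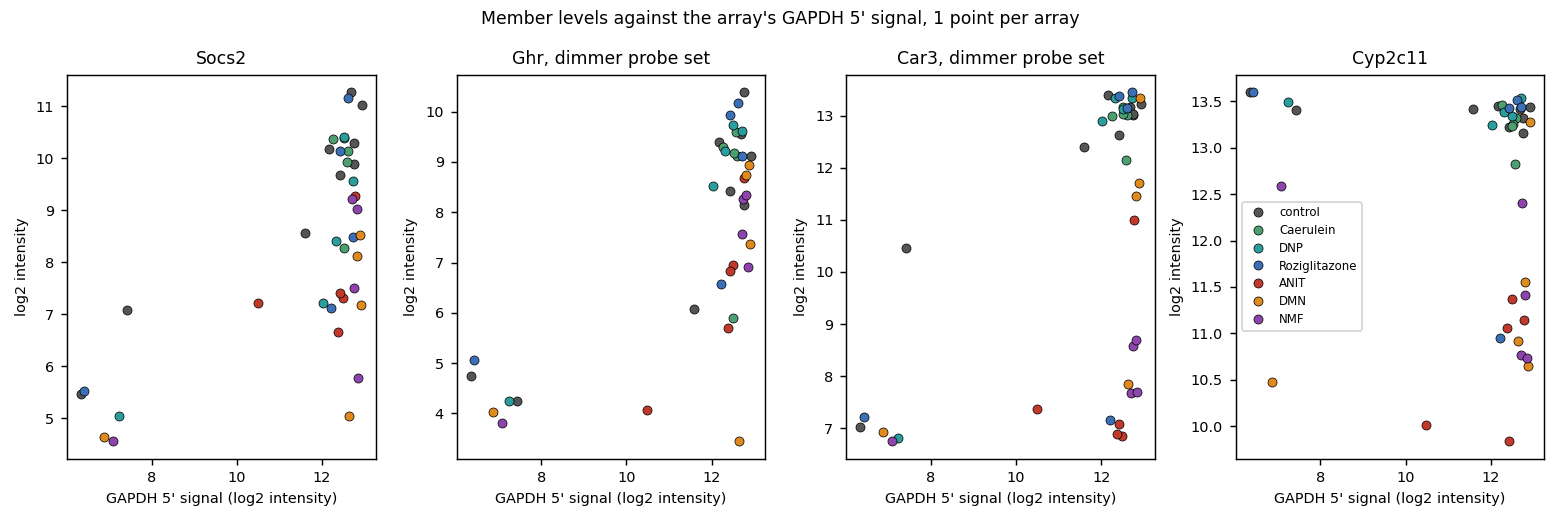
Each point is 1 of the 39 arrays; the horizontal axis is the GAPDH 5′ signal and the vertical axis the level of Socs2, of the dimmer probe sets of Ghr and Car3 and of Cyp2c11, all as log2 intensity, colored by group. The 6 arrays at 6.34 to 7.42 on the horizontal axis are low for Socs2 and the dimmer probe sets, control 4 less so for Car3, while for Cyp2c11 the control and DNP arrays among them lie at 13.41 to 13.60.

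Igfals encodes the acid-labile subunit that keeps IGF1 in the circulation. The controls had 10.68 at the lowest, 11.39 at the median and 11.68 at the highest. The ANIT arrays had 10.34, 9.82, 9.72, 9.71 and 10.16, the DMN arrays 10.22, 10.63, 9.89, 9.91 and 7.36, and the NMF arrays 10.66, 9.64, 9.79, 10.04 and 9.83. Every array of the 3 groups was below every control, and Igfals was the only member for which this held in DMN. It fell after DMN (-1.66, SE 0.29, 3.16-fold, adjusted p = 1.83e-04), after ANIT (-1.31, SE 0.29, 2.48-fold, adjusted p = 0.00171) and after NMF (-1.27, SE 0.29, 2.41-fold, adjusted p = 0.00340). Without the array labelled DMN 5, at 7.36, the DMN difference was -1.10 and still passed. No difference between the 3 compounds in Igfals passed the test, with adjusted p of 0.655 to 0.962 and intervals within -1.05 to 1.02. The Caerulein range was 10.87 to 11.58, the DNP range 10.85 to 11.05 and the Roziglitazone range 10.09 to 11.22.

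The 4 male-pattern members encode steroid- and drug-oxidising cytochromes P450 (Cyp2c11, Cyp2c13, Cyp3a2) and a pheromone-binding urinary lipocalin of the α2u-globulin family (Obp3). Because several of them moved together, their promoters are shown, from 250 bases before to 50 after a RefSeq start in the GRCr8 build. Cyp2c11 is at chr1:246174966-246175265 on the plus strand. On the minus strand are Cyp2c13 at chr1:248787139-248787438, Cyp3a2 at chr12:14343808-14344107 and Obp3 at chr5:79640626-79640925. Capitals mark matches, on either strand, to a FOXA motif (TGTTTNC), an ONECUT1 motif (ATTGAT) or an HNF4A motif (CAAAGTCCA).
Cyp2c11: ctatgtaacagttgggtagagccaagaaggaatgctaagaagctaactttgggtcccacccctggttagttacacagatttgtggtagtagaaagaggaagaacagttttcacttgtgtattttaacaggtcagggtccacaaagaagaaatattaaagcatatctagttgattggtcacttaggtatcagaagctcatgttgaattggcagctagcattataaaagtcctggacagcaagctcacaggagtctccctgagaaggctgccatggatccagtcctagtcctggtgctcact
Cyp2c13: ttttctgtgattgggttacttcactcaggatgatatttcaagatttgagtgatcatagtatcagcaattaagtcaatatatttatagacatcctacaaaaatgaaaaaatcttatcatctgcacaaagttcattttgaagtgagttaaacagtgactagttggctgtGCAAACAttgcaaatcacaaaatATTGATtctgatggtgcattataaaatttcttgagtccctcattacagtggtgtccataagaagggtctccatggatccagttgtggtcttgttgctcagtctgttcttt
Cyp3a2: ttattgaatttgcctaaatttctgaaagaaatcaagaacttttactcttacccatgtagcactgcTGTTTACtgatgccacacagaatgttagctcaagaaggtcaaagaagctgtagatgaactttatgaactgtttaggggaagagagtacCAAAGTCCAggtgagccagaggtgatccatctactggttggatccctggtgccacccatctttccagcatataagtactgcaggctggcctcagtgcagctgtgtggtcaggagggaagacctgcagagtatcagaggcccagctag
Obp3: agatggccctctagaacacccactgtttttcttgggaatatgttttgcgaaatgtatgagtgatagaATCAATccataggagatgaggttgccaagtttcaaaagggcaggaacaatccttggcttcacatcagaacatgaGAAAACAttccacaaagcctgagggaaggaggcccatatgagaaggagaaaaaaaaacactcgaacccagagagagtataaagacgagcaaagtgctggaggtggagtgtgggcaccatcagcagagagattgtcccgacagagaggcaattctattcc

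In Cyp2c13 the FOXA match lay at bases -83 to -77 from the start and the ONECUT1 match at -60 to -55, and in Obp3 the FOXA match lay at -109 to -103 and the ONECUT1 match at -183 to -178. In Cyp3a2 a FOXA match at -185 to -179 and the HNF4A match at -97 to -89 were found, and the Cyp2c11 window held no match to these letters. Promoters were matched for 7 members: these 4, Ghr, Igfals and Stat5b. The FOXA motif was in 4 of the 7 (Cyp2c13, Cyp3a2, Obp3 and Ghr) and in 21.1% of all 33469 promoters, the ONECUT1 motif in 3 (Cyp2c13, Obp3 and Ghr) and in 8.06%, and the HNF4A motif in 1 and in 0.391%. The STAT5 motif TTCNNNGAA was in none of the 7 windows and in 8.87% of all promoters. The annotated Obp3 gene reaches to 79640810, so its FOXA match at 79640778-79640784 lay inside the gene and not before it. The Ghr window (54432026-54432325) lay inside a gene spanning 54269066-54532595. The Igfals window (14403600-14403899) lay inside a gene spanning 14397076-14408439. Most of the Stat5b window (86275903-86276202) lay inside a gene spanning 86205148-86276178. Other starts of these genes were not examined. A match is a run of letters and does not show binding.

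Cyp2c11, the main steroid hydroxylase of the adult male rat liver, fell after all 3 compounds. The controls ran from 13.16 through 13.42 to 13.60. ANIT arrays 1 to 5 had 11.37, 9.84, 11.14, 11.06 and 10.01, the DMN arrays 11.55, 13.28, 10.48, 10.65 and 10.92, and the NMF arrays 10.77, 12.40, 12.59, 11.41 and 10.74. All ANIT and NMF arrays were below the controls, and of the DMN arrays all but the array labelled DMN 2. The log2 difference was -2.70 after ANIT (SE 0.37, 6.49-fold, adjusted p = 5.88e-06) and -1.80 after NMF (SE 0.37, 3.48-fold, adjusted p = 0.00123). After DMN the level fell by 2.00 on the log2 scale (SE 0.37, 4.01-fold, adjusted p = 3.83e-04), and without the array labelled DMN 2 the difference was -2.48 (adjusted p = 4.37e-06). The Caerulein (12.82 to 13.46) and DNP (13.24 to 13.53) arrays overlapped the controls, and Roziglitazone had 13.60, 10.95, 13.43, 13.51 and 13.44, with the low value in array 2.

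Cyp2c13, a male-pattern steroid hydroxylase of the same subfamily, fell most after NMF. Untreated livers ranged from 12.91 through 13.17 to 13.32. The NMF arrays had 10.10, 11.74, 11.89, 11.03 and 10.14, all below the controls. The ANIT arrays had 12.48, 12.26, 13.05, 12.32 and 12.10, and the DMN arrays 13.09, 13.28, 12.92, 13.00 and 12.39, both overlapping the controls. Cyp2c13 fell after NMF (-2.18, SE 0.21, 4.52-fold, adjusted p = 2.84e-09) and after ANIT (-0.71, SE 0.21, 1.64-fold, adjusted p = 0.0168), and the DMN difference was -0.22 (SE 0.21, adjusted p = 0.589). The ANIT call was lost without the array labelled ANIT 5 (-0.63, adjusted p = 0.0630) and with each array centred on its median (-0.58, adjusted p = 0.0847). The suffix of its probe set marks a match to several transcripts, so related Cyp2c genes could add to this signal.

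Cyp3a2, a male-pattern enzyme of steroid and drug oxidation, fell after ANIT and NMF. The controls ran from 12.52 through 13.12 to 13.56. ANIT arrays 1 to 5 had 11.58, 10.26, 12.93, 10.09 and 11.10, the NMF arrays 10.68, 11.40, 12.05, 11.27 and 10.76, and the DMN arrays 12.72, 12.98, 12.77, 12.88 and 11.43. The NMF arrays were all below the controls, the array labelled ANIT 3 lay within the control range, and DMN 5 stood below the other DMN arrays. The log2 difference was -1.91 after ANIT (SE 0.31, 3.75-fold, adjusted p = 5.03e-05), -1.87 after NMF (SE 0.31, 3.65-fold, adjusted p = 7.67e-05) and -0.55 after DMN (SE 0.31, adjusted p = 0.302). The ANIT difference without the array labelled ANIT 3 was -2.34 (adjusted p = 3.89e-07).

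Obp3 fell after all 3 compounds. Untreated livers ranged from 11.22 through 11.98 to 12.32. The ANIT arrays had 10.99, 10.31, 8.24, 10.71 and 8.70, the DMN arrays 10.17, 11.83, 9.78, 9.59 and 10.09, and the NMF arrays 9.49, 10.30, 11.10, 9.98 and 10.12. All ANIT and NMF arrays were below the controls, and ANIT 3 was the lowest of its group here, unlike in Cyp3a2, Serpina6 and Car3, where it was the highest. Obp3 fell after ANIT (-2.03, SE 0.39, 4.10-fold, adjusted p = 3.74e-04), after NMF (-1.63, SE 0.39, 3.09-fold, adjusted p = 0.00575) and after DMN (-1.53, SE 0.39, 2.89-fold, adjusted p = 0.00826). The DMN difference without the array labelled DMN 2 was -1.92 (adjusted p = 7.15e-04). The untreated and Caerulein arrays varied more in Obp3 than in the P450 genes, with Caerulein at 11.69, 10.13, 12.37, 11.80 and 11.96. Its probe set is of a kind that can bind related sequences, and Obp3 belongs to a multigene family, so its signal may come from several copies. The other Obp3 probe set differed by -2.43, -1.93 and -1.71 for ANIT, DMN and NMF and passed the test for ANIT alone (adjusted p of 0.0146, 0.0830 and 0.168).

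**Figure D3:**
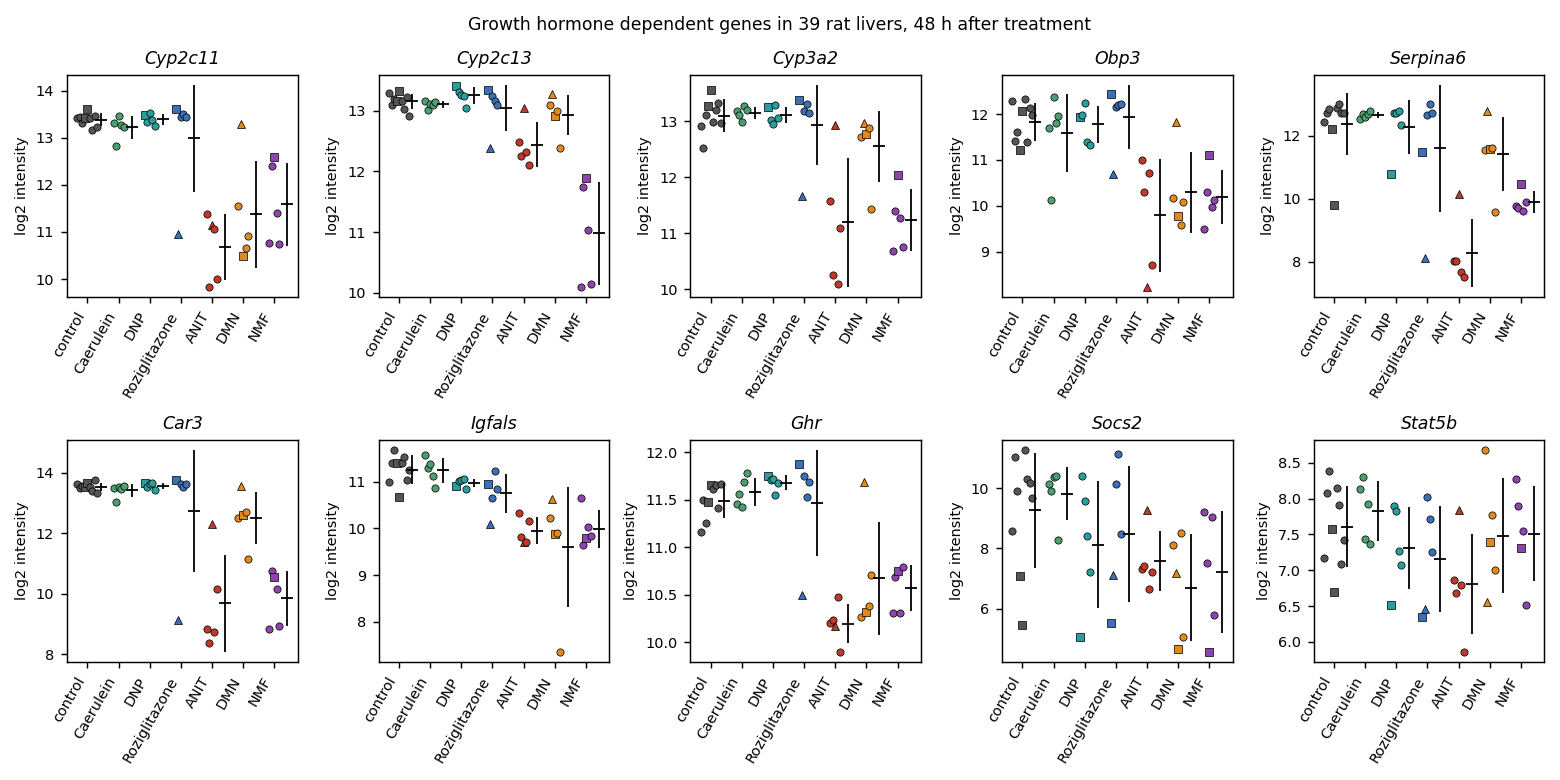
Each panel is a member gene, each point an array placed by group, and the vertical axis is log2 intensity; the bar beside each group is the mean with 1 SD (n = 9 controls and n = 5 per compound). Triangles are the 3 arrays that stood apart from their labels and squares the 6 arrays with low GAPDH 5′ signal; the ANIT and NMF arrays of Cyp2c11 lie at 9.84 to 12.59 and the controls at 13.16 to 13.60.

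Serpina6 encodes corticosteroid-binding globulin, the plasma carrier of glucocorticoids. The controls ran from 9.81 through 12.72 to 13.00, and the lowest was control 5, with all others at 12.22 or above. ANIT arrays 1 to 5 had 8.02, 8.04, 10.16, 7.68 and 7.53, the NMF arrays 9.78, 9.71, 10.48, 9.61 and 9.91, and the DMN arrays 11.55, 12.80, 11.60, 11.61 and 9.57. Only control 5 overlapped the ANIT and NMF arrays. Serpina6 fell after ANIT (-4.09, SE 0.57, 17.1-fold, adjusted p = 6.02e-06) and after NMF (-2.48, SE 0.57, 5.57-fold, adjusted p = 0.00357). The ANIT fold was the largest among the members by the brightest probe set of each, and a dimmer Car3 probe set fell 18.5-fold after ANIT. The DMN difference was -0.95 (SE 0.57, adjusted p = 0.326), without the array labelled DMN 2 alone it was -1.30 and did not pass (adjusted p = 0.168), and without all 3 arrays that stood apart from their labels it was -1.30 with an adjusted p of 0.0326. Without all 9 arrays the Serpina6 difference after DMN was -1.86 (SE 0.25, adjusted p = 7.01e-06). The Caerulein arrays lay between 12.55 and 12.80, and the DNP arrays between 12.35 and 12.78 apart from DNP 1, at 10.78.

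Car3 encodes carbonic anhydrase 3, an abundant cytosolic enzyme of male rat liver. Untreated livers ranged from 13.33 through 13.54 to 13.75. The ANIT arrays had 8.85, 8.39, 12.30, 8.75 and 10.18, the NMF arrays 8.85, 10.75, 10.57, 10.15 and 8.93, and the DMN arrays 12.51, 13.58, 12.62, 12.72 and 11.17. The ANIT and NMF arrays were all below the controls, with ANIT 3 the nearest to them, and of the DMN arrays only the array labelled DMN 2 reached the control range. Car3 fell after ANIT (-3.85, SE 0.53, 14.4-fold, adjusted p = 5.88e-06) and after NMF (-3.70, SE 0.53, 13.0-fold, adjusted p = 9.24e-06). The DMN difference was -1.03 (SE 0.53, adjusted p = 0.245), without the array labelled DMN 2 alone it was -1.29 and did not pass (adjusted p = 0.143), and without all 3 arrays that stood apart from their labels it was -1.29 with an adjusted p of 0.00148. Without all 9 arrays the Car3 difference after DMN was -1.40 (adjusted p = 0.00447). A dimmer Car3 probe set was also called after ANIT (-4.21, adjusted p = 0.0168) and NMF (-4.17, adjusted p = 0.0325).

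After Caerulein, DNP and Roziglitazone no member passed the test, and no member had an unadjusted p under 0.05. By limma 0% of all genes were called in these comparisons, and 541, 199 and 1044 of the 14217 genes, or 3.81%, 1.40% and 7.34%, had an unadjusted p under 0.05. The median member difference was 0.02 for Caerulein, -0.02 for DNP and -0.42 for Roziglitazone. For Cyp2c11 the 95% interval of the difference from control was -0.92 to 0.59 after Caerulein, -0.74 to 0.77 after DNP and -1.15 to 0.36 after Roziglitazone. For Ghr it was -0.28 to 0.46, -0.18 to 0.56 and -0.39 to 0.35. The intervals of Socs2 were wider, at -1.34 to 2.44, -3.03 to 0.75 and -2.68 to 1.10, around differences of 0.55, -1.14 and -0.79. Igfals differed by -0.51 after Roziglitazone (-1.10 to 0.08). The array labelled Roziglitazone 2 was at least 1 unit below the control mean in 8 members, with Serpina6 at 8.13 and Car3 at 9.13, where the other Roziglitazone arrays had Car3 at 13.55 to 13.76. Without that array the Roziglitazone difference was 0.11 for Cyp2c11 and 0.09 for Car3.

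**Figure D4:**
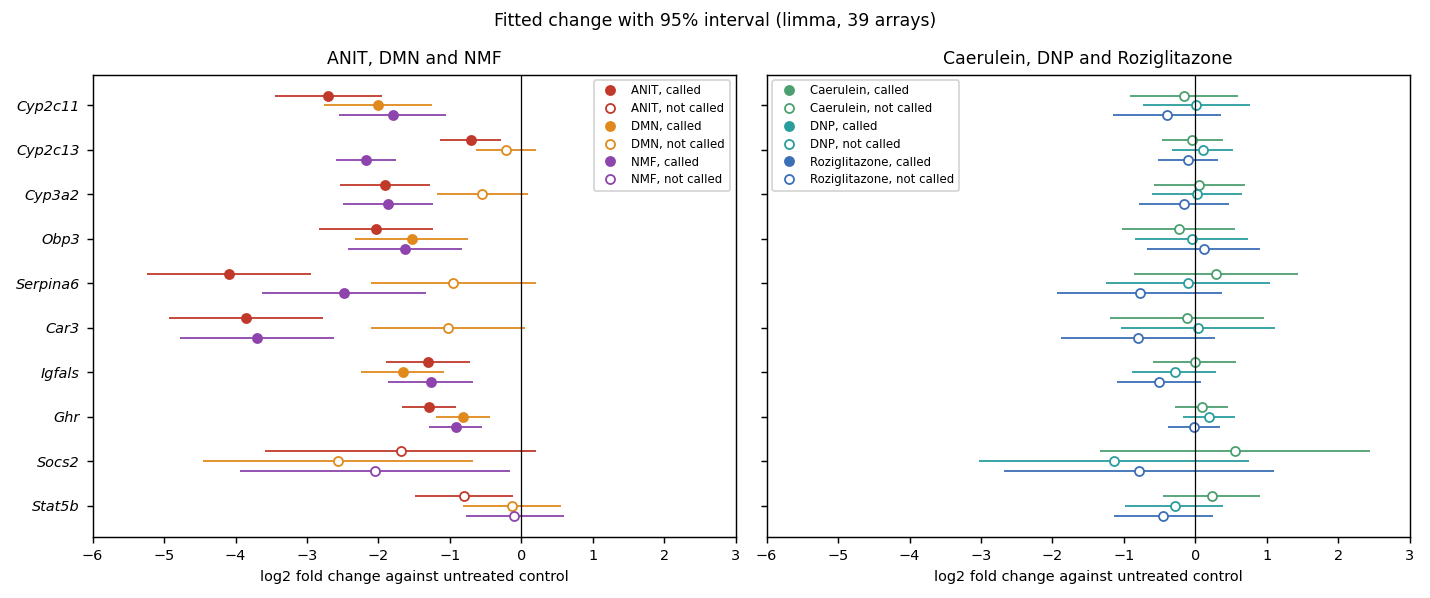
Each point is the log2 fold change of a member against untreated control, with its 95% interval from the fit to all 39 arrays; filled points passed the test and open points did not. The left panel shows ANIT, DMN and NMF, where filled points run from -4.09 to -0.71, and the right panel the other compounds, with no filled point.

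Comparisons matched for vehicle and route gave related counts. DMN and DNP were given at the same dose in water by mouth, and 4 members were lower in DMN and none higher, where 3.04% of all genes were lower and 3.85% higher. They were Cyp2c11 (-2.02, SE 0.42, adjusted p = 0.00222), Obp3 (-1.49, SE 0.44, adjusted p = 0.0342), Igfals (-1.37, SE 0.33, adjusted p = 0.00760) and Ghr (-1.01, SE 0.21, adjusted p = 0.00195). The arrays did not overlap for Igfals alone, as for 2.35% of all genes. The dimmer Ghr probe set did not pass (-1.76, adjusted p = 0.496). With the mean over the probe sets of a gene the Ghr call (-1.38, adjusted p = 0.200) and the Obp3 call (-1.59, adjusted p = 0.101) were lost. The Obp3 call was lost in 7 of 10 fits that left out 1 array, and in a fit to these groups alone Cyp2c11 was the only member called. Without the 6 arrays of low GAPDH 5′ signal Obp3 did not pass (-1.32, adjusted p = 0.123). Car3 was called lower in DMN without the 3 arrays that stood apart from their labels (-1.33, adjusted p = 0.00447) and without all 9 (-1.43, adjusted p = 0.0107), and Serpina6 without all 9 (-1.74, adjusted p = 9.54e-05).

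NMF and Caerulein were both injected in saline, and 7 members were lower in NMF and none higher, where 2.06% of all genes were lower and 3.43% higher. The same 7 members had no overlap between the arrays, against 3.05% of all genes. The differences were -3.58 for Car3 (SE 0.60, 11.9-fold), -2.77 for Serpina6 (SE 0.64, 6.81-fold), -2.13 for Cyp2c13 (SE 0.24), -1.92 for Cyp3a2 (SE 0.35), -1.64 for Cyp2c11 (SE 0.42), -1.26 for Igfals (SE 0.33) and -1.01 for Ghr (SE 0.21), with adjusted p from 1.13e-07 to 0.0161. The dimmer Ghr probe set did not pass (-1.64, adjusted p = 0.665), nor did the mean of both Ghr probe sets (-1.33, adjusted p = 0.285). Obp3 differed by -1.39 and did not pass (adjusted p = 0.0565). It passed without the 3 arrays that stood apart from their labels (-1.39, adjusted p = 0.00977), without the 6 of low GAPDH 5′ signal (-1.62, adjusted p = 0.0332) and without all 9 (-1.62, adjusted p = 0.00444). Without the array labelled Caerulein 2 it differed by -1.76 and passed (adjusted p = 0.0150), and without NMF 1 or NMF 5 the Cyp2c11 call was lost (adjusted p = 0.0603 in both).

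ANIT, DMN and NMF differed from each other in some members, tested directly. Between ANIT and DMN, 3 members were lower in ANIT and none higher, where 1.07% of all genes were lower and 1.46% higher: Serpina6 (-3.14, SE 0.64, 8.82-fold, adjusted p = 0.00668), Car3 (-2.83, SE 0.60, 7.09-fold, adjusted p = 0.00839) and Cyp3a2 (-1.36, SE 0.35, 2.57-fold, adjusted p = 0.0318). Their arrays overlapped, with ANIT 3 near the DMN arrays. Between DMN and NMF, 3 members were higher in DMN and none lower, where 3% of all genes were higher and 1.66% lower: Car3 (2.67, SE 0.60, adjusted p = 0.00498), Cyp2c13 (1.96, SE 0.24, adjusted p = 9.54e-07) and Cyp3a2 (1.32, SE 0.35, adjusted p = 0.0193). Car3 and Cyp2c13 had no overlap between these groups, against 1.77% of all genes. Between ANIT and NMF, Cyp2c13 was higher in ANIT (1.46, SE 0.24, adjusted p = 1.13e-04) with no overlap, where 3.76% of all genes were called higher and 3.81% had no overlap in that direction. No member was called lower in ANIT than in NMF, with 2.86% of all genes called lower and 3 members at an unadjusted p under 0.05 in either direction. Without the array labelled ANIT 3, Serpina6 was lower in ANIT than in NMF (-2.08, adjusted p = 0.0399), as it was without the 3 arrays (-2.08, adjusted p = 0.00292) and without all 9 (-1.94, adjusted p = 8.21e-06), and Cyp2c11 was lower in ANIT without the 3 (-1.01, adjusted p = 0.0225). Without all 9 arrays Stat5b was lower in ANIT than in DMN (-1.27, adjusted p = 0.0332) and Serpina6 was higher in DMN than in NMF (1.16, adjusted p = 0.00871). In fits to the ANIT and DMN arrays alone none of the 3 ANIT against DMN differences was called (adjusted p of 0.154 for Serpina6, 0.162 for Car3 and 0.254 for Cyp3a2). The Cyp3a2 differences lost the call in 7 of 10 fits for ANIT against DMN and in 4 of 10 for DMN against NMF when 1 array was left out. The dimmer Car3 probe set passed neither for ANIT against DMN (-2.43, adjusted p = 0.466) nor for DMN against NMF (2.38, adjusted p = 0.590). With the mean of both Car3 probe sets, both of these Car3 calls were lost (-2.63, adjusted p = 0.0824, and 2.53, adjusted p = 0.0836).

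Among the genes of growth hormone receptor signalling, 16 of 17 listed were measured, 2 fell and none rose after each of ANIT, DMN and NMF. They were the member Ghr and Cish, a feedback inhibitor induced by STAT5. Of the 13 measured that are not members, 1 fell after each compound. For this list and those that follow, 8.29% of all genes fell and 8.19% rose after ANIT. The shares were 4.53% and 5.87% after DMN, and 3.63% and 3.85% after NMF. Cish fell after ANIT (-1.22, SE 0.34, adjusted p = 0.0106), after DMN (-1.32, SE 0.34, adjusted p = 0.00814) and after NMF (-1.10, SE 0.34, adjusted p = 0.0360). The median of the 16 genes was -0.12, -0.07 and -0.14.

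All 8 genes of the IGF axis were measured. After ANIT 3 fell and 2 rose, after DMN 2 fell and 1 rose, and after NMF 2 fell and none rose. These counts include the member Igfals, which fell after each compound. Of the 7 that are not members, 2 fell and 2 rose after ANIT, 1 fell and 1 rose after DMN, and 1 fell after NMF. Igf1, the secreted growth factor, fell after ANIT (-0.31, SE 0.11, adjusted p = 0.0445) and after NMF (-0.39, SE 0.11, adjusted p = 0.0180). Igfbp3, which forms the circulating complex with IGF1 and the Igfals product, fell after ANIT (-1.12, SE 0.38, adjusted p = 0.0390) and after DMN (-1.86, SE 0.38, adjusted p = 0.00113). Igfbp2, another IGF-binding protein, rose by 1.75 after ANIT (SE 0.26, adjusted p = 1.79e-05), and Igf2r, a receptor that clears IGF2, rose after ANIT (0.78) and DMN (0.68).

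Of 12 other male-pattern liver genes 9 were measured, and 6 fell after ANIT, 5 after DMN and 6 after NMF, with none higher. Fmo1, a flavin-containing monooxygenase, fell after ANIT, DMN and NMF (-3.10, -2.83 and -4.67, SE 0.48 each). Rgn, a calcium-binding protein of liver, also fell after all 3 (-1.41, -0.96 and -3.14). Cyp2a2 and Cyp2d4, cytochromes P450, fell after all 3 compounds (-0.87 to -0.49), and Ust5r, a transporter-like gene, fell after ANIT (-2.63) and NMF (-3.19) and differed by -1.05 after DMN.

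Of 13 female-pattern genes 12 were measured, and 2 fell and 2 rose after ANIT, 1 fell after DMN and 2 fell after NMF. Cyp2c12, the classical female-pattern P450, did not pass in any (0.87, -0.35 and 0.99). Hao2, a hydroxyacid oxidase, fell after all 3 (-1.07, -1.14 and -1.45). After ANIT Trim24 (1.69) and Cyp17a1 (1.21) rose and Prlr, the prolactin receptor, fell (adjusted p = 0.0123). After NMF the other gene that fell was Cyp2c7 (-0.45).

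**Figure D5:**
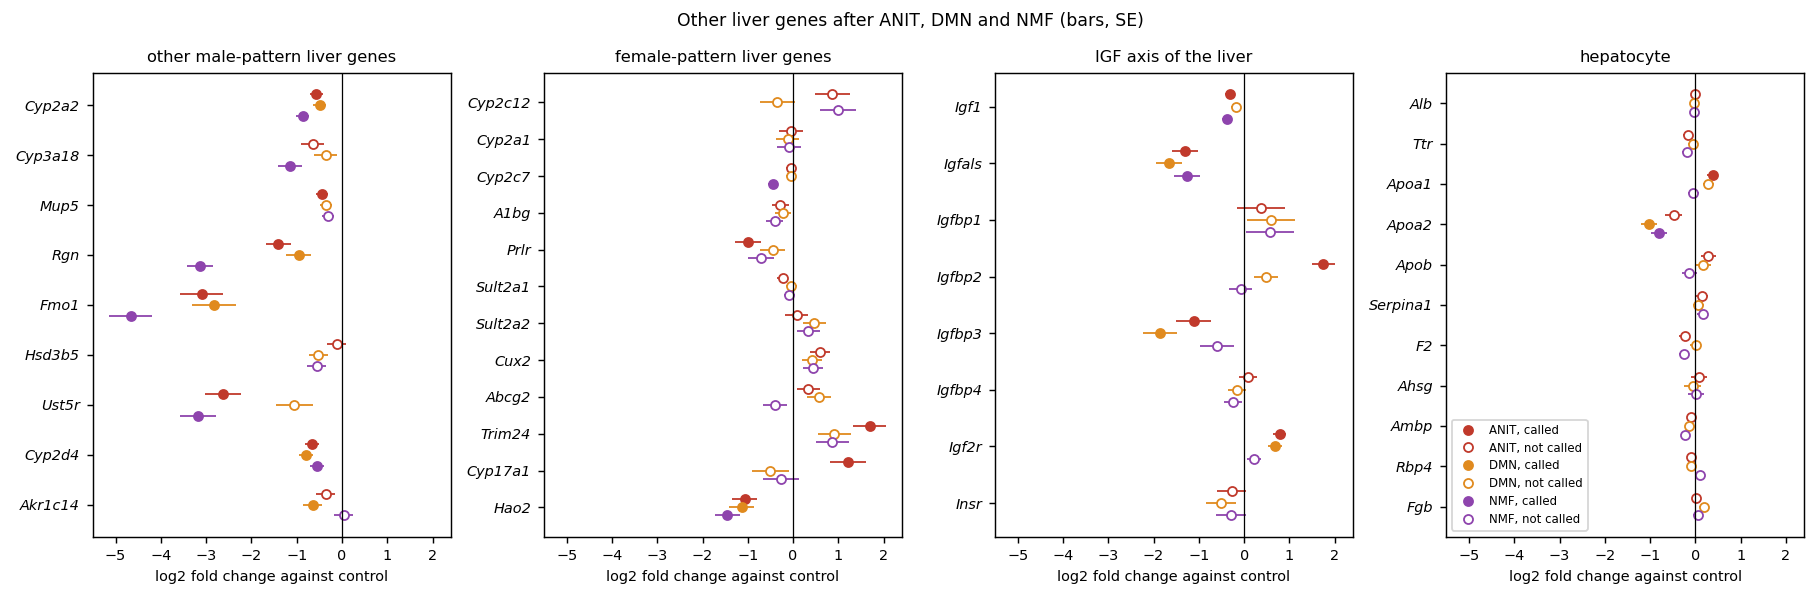
Each point is the log2 fold change of a gene against untreated control after ANIT, DMN or NMF with its SE, for 4 lists; filled points passed the test. In the male-pattern panel Fmo1 lies at -4.67 to -2.83, and in the hepatocyte panel 1 gene is filled per compound.

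Genes of neighbouring responses and of other cell types moved in the same arrays, and their part in the members' changes was not tested. Of the 11 measured liver factors that act with STAT5, Foxa1 fell by 1.24 after ANIT and none was called after DMN. After NMF Nr3c1, the glucocorticoid receptor, fell by 0.91 and Nr1i3 rose by 1.27. The median difference of the 11 was 0.00 after ANIT, -0.43 after DMN and -0.20 after NMF. Of 14 acute phase genes 4 rose after ANIT and the same 4 after DMN, with Lcn2 at 4.92 and 3.86, A2m at 3.35 and 2.42, Lbp at 2.19 and 1.24 and Orm1 at 0.96 and 0.72. After NMF none of the 14 acute phase genes was called higher and Cp fell by 0.66, with Lcn2 at -0.36. Of 8 fasting response genes 1 was called after ANIT (Angptl4, -1.47), 1 after DMN (Fgf21, 1.31) and none after NMF. Of 8 glucocorticoid response genes Tsc22d3 fell after ANIT and DMN (-1.22 and -1.21) and Mt2A rose after NMF (1.03). Of 11 hepatocyte markers Apoa1 rose by 0.38 after ANIT, and Apoa2 fell after DMN (-1.02) and NMF (-0.80). The summed hepatocyte intensity ranged from 117407 to 154835 in the controls, 139298 to 152844 in ANIT, 133950 to 153877 in DMN and 132648 to 143041 in NMF. The medians of this sum were 150846, 147459, 144166 and 138675 in the same order, and all NMF arrays lay below the control median. Differences in the sum were not tested. None of the 3 sex-linked genes measured was called.

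Of 7 macrophage markers 2 rose and 1 fell after ANIT, 2 rose and 1 fell after DMN and 1 rose and 2 fell after NMF. Their summed intensity was 5795 to 8330 in the controls, 7601 to 12645 in ANIT, 7159 to 18130 in DMN and 5604 to 11435 in NMF. Of 5 neutrophil markers 4 rose after DMN and none was called after ANIT or NMF, with sums of 422 to 1240 in the controls, 578 to 2961 in ANIT, 418 to 7174 in DMN and 406 to 887 in NMF. Of 6 lymphocyte markers 2 fell after ANIT and none was called after DMN or NMF. Their sums were 481 to 651 in the controls, 386 to 514 in ANIT, 477 to 765 in DMN and 383 to 573 in NMF, and Cd3d, a defining T cell marker, had a control mean of 4.62, within the range of the spike-ins. Of 5 cholangiocyte markers 1 rose and 1 fell after ANIT and after DMN and 1 rose after NMF, with sums of 537 to 1039 in the controls, 726 to 1450 in ANIT, 592 to 1357 in DMN and 831 to 1273 in NMF. Of 6 endothelial markers 2 fell after ANIT, 3 after DMN and none after NMF, and their sums were 2526 to 7013, 2125 to 3956, 2464 to 4259 and 2769 to 3615 in the controls, ANIT, DMN and NMF. Of 9 stellate cell markers 1 rose and 1 fell after ANIT and after DMN and 3 fell after NMF, with sums of 4655 to 8859, 3034 to 7858, 3274 to 4835 and 2998 to 3944.

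Over the 39 arrays the genes with the most similar pattern to each member were named by Pearson correlation, as a description, since the arrays share groups and processing. Ghr was among the 3 most similar genes to Cyp2c11 (0.921), beside Sez6 (0.924) and Slc22a8 (0.915). Cyp2c13 was most similar to Rgn (0.904), Ust5r (0.885) and Spink1l (0.864). Cyp3a2 and Car3 had each other as the most similar gene (0.950), and Otc and Sult1c3 were next for both, at 0.902 to 0.928. Obp3 was most similar to Dhrs7l1 (0.913) and then to Hao2 (0.873), which is listed above as a female-pattern gene. Serpina6 was most similar to Serpina3l (0.944), Igfals to Cyp2d3 (0.895) and Ghr to LOC102554026 (0.950). Socs2 was most similar to Mug1 (0.893) and Stat5b to Ykt6 (0.802). Stat5b, which did not pass the test in any comparison with control, had the lowest of these values.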

How the data were processed

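Expression was measured on 39 arrays in 7 groups. Each deposited value is the linear intensity of a probe set (5.4 to 23152.1 over the table). RMA and the affy package made them, per the submitters' processing notes, with no version. The authors' step back to a linear scale is not given in the sources used here. The plan had assumed log2 values; the log2 was taken here.

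Probe sets were named from the platform annotation: 20826 had 1 gene symbol, 436 several and 9780 none, and 57 were controls. Symbols were updated through a RefSeq gene table (20758 matched, 68 kept). Of several probe sets of a gene (4525 genes), the one brightest on average was used, giving 14217 genes. With limma 3.58.1 in R 4.3.3 (lmFit, contrasts.fit, eBayes; 1 mean per group, no block) 11 contrasts were fitted on all arrays. P-values were adjusted by Benjamini-Hochberg over all genes, with calls under 0.05 and 95% intervals from limma's SE and degrees of freedom. The scripts were tested on simulated data. Arrays give no read depth.

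The members and lists were chosen with earlier results of these data known, as were the 3 arrays in doubt. Genes named are the members, most called genes of the lists, the called hepatocyte markers, and Cyp2c12, Lcn2, Cd3d and Ust5r where not called. Called markers of the other cell types are given as counts. The gene most similar to each member is named, and for some members the 3 most similar. Promoters are RefSeq's, in GRCr8; 3 members (Serpina6, Car3, Socs2) had no entry in the table. Alternatives changed the scaling, probe set rule, dim-gene filter, variance model, array weights, samples fitted, replicate block and arrays left out.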

Additional observations from a re-analysis of the deposited data

Results flagged for a closer look

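In 15 of 70 sets of a member's values in a group, 1 array lay far from the rest of its group by a gap test that chance passes in about 1 in 20 groups. The array labelled Roziglitazone 2 was the low one for 6 members: Cyp2c11 at 10.95 (next 13.43), Cyp2c13 at 12.38 (next 13.10), Cyp3a2 at 11.67 (next 13.15), Obp3 at 10.70 (next 12.16), Car3 at 9.13 (next 13.55) and Ghr at 10.50 (next 11.53). The array labelled DMN 2 was the high one for Obp3, at 11.83 (next 10.17), and DMN 5 the low one for Cyp3a2, at 11.43 (next 12.72), and Igfals, at 7.36 (next 9.89). The array labelled ANIT 3 was the high one for Serpina6, at 10.16 (next 8.04), and Socs2, at 9.28 (next 7.41). Serpina6 was low in DNP 1, at 10.78 (next 12.35), and in control 5, at 9.81 (next 12.22), both arrays with little GAPDH 5′ signal. Car3 was low in Caerulein 2, at 13.04 (next 13.48), and Socs2 in Caerulein 5, at 8.27 (next 9.92). Of the 15 values, 11 were in the 3 arrays that stood apart from their labels or the 6 with low GAPDH 5′ signal. Whether labels were exchanged was not tested.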

How the results depend on the processing

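No difference that passed the test, in the main analysis or under an alternative, changed sign between them. Of 1320 values of single members under the settings other than leaving out 1 array, 1185 kept their sign and side of the threshold, 67 that passed under neither setting changed sign, 45 gained the call and 23 lost it. Leaving out 1 array changed the sign of 55 of 1340 values, none called. Apart from these single values, the Roziglitazone median over the members was -0.42 with all arrays and 0.09 without the 3 arrays that stood apart from their labels. The settings that leave out arrays by quality or label, and the one with the GAPDH 5′ signal as a covariate, were chosen after seeing the data. Counts of members moved too, and the smaller moves are not all given. Among these, the Ghr calls after ANIT, DMN and NMF were lost with the mean over probe sets. With array weights Socs2 was called lower after all 3 compounds, Stat5b after ANIT and Serpina6 after DMN. The larger moves were as follows. With all 9 doubted or low-signal arrays left out, 7 members were lower after DMN and 1 was lower in ANIT than in NMF, and with only the 3 that stood apart from their labels left out, 2 were lower in ANIT than in NMF. With the mean over probe sets, 2 were lower in DMN than in DNP. In fits to the compared groups alone, 1 was lower in DMN than in DNP, 0 in ANIT than in DMN and 1 in ANIT than in NMF. With array weights, 5 were lower in ANIT than in DMN and 3 in ANIT than in NMF. The replicate numbers were not taken to pair the arrays, since all same-numbered arrays deviated together with a correlation above 0.1 in 1 of 21 pairs of groups. Of 105 same-numbered pairs 58 were above 0.1, and 42 of 105 arrays correlated best with their own number, where equal chance among 5 gives 21. With the replicate block 8, 3 and 7 members were lower after ANIT, DMN and NMF, the Obp3 calls being lost (adjusted p of 0.0645 for DMN and 0.0559 for NMF), and 3 were lower in DMN than in DNP. Leaving out 1 array at a time gave 7 to 9, 4 to 5 and 8 to 8 members lower after ANIT, DMN and NMF, 3 to 4 in DMN against DNP, 6 to 8 in NMF against Caerulein, 2 to 3 in ANIT against DMN, 0 to 1 lower in ANIT than in NMF (1 without ANIT 3) and 2 to 3 higher in DMN than in NMF. Centring each array on its median moved the median of all genes from -0.09 to 0.04 for ANIT and turned the split of all calls from 1179 lower and 1165 higher to 627 and 1666, for DMN from 644 and 834 to 339 and 1047, and for NMF from 516 and 547 to 308 and 736, with member medians of -1.67, -0.89 and -1.74. The causes of these shifts were not tested. In the 6 arrays with little GAPDH 5′ signal the dimmer Ghr probe set lay at 3.81 to 5.06, near the spike-ins, and Socs2 at 4.56 to 7.08, and DMN 5, with more GAPDH 5′ signal, had 3.45 and 5.05.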
